A study of Homo sapiens with 9 samples.

Results

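The nicotinic acetylcholine receptor subunits were examined as 10 genes, CHRNA1, CHRNA3, CHRNA4, CHRNA5, CHRNA7, CHRNA9, CHRNA10, CHRNB1, CHRNB2 and CHRNB4, out of 34623 gene names on the array. They were chosen by the gene name that the scanner files give to each probe. This gave 12 probes of 42405, since CHRNA1 and CHRNA3 have 2 probes each and the other 8 genes have 1. Other subunit genes were not used here, except where they stand in a list named in the text. The cells were NT2 cells (also written hNT2), a human embryonal carcinoma line that takes a neuronal path with retinoic acid. All cultures were kept for 4 days (96 h in the labels) in DMEM-based medium with 10 µM retinoic acid, 10% foetal bovine serum and antibiotics. The 3 control arrays had no organophosphate, 3 arrays came from cells given 1 µM paraoxon and 3 from cells given 5 µM mipafox. The methods describe the replicates as technical and the series record describes them as biological, so the p-values measure the spread between these arrays, which may be technical.

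Nicotinic receptors are ion channels opened by acetylcholine, and each is a ring of subunits that share the Cys-loop fold. CHRNA1 and CHRNB1 build the receptor of the muscle synapse, together with CHRND and CHRNE or CHRNG. CHRNA3, CHRNB4 and CHRNA5 build the receptor of autonomic ganglia, CHRNA4 and CHRNB2 the commonest form in brain, CHRNA7 forms channels of a single kind of subunit, and CHRNA9 with CHRNA10 serves the hair cells of the inner ear. Paraoxon and mipafox are organophosphates, compounds that block serine esterases. Paraoxon is a strong inhibitor of acetylcholinesterase, the enzyme that ends the signal at these receptors, and mipafox is known for blocking neuropathy target esterase.

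Of the 10 genes, 8 gave a signal well above background on all 9 arrays, by the flag that the scanner software sets for each spot. They were CHRNA3 (both probes), CHRNA4, CHRNA5, CHRNA7, CHRNA10, CHRNB1, CHRNB2 and CHRNB4. CHRNA9 was not well above background on any array. CHRNA1 had 1 probe that was not well above background on any array and 1 that was so on 4 of 9. The ganglionic, the brain and the CHRNA7 subunits were therefore all measurable, whereas of the inner ear pair only CHRNA10 was. In RNA of whole cultures, fewer cells of a type and less RNA per cell cannot be told apart.

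Some of the probe sequences bear on what these signals measure, and they are printed with their hg19 position, read 5′ to 3′ from the scanner files. No hg19 gene annotation was used here, so exons and untranslated regions were not assigned. The first pair belongs to CHRNA5 and CHRNA3. The CHRNA5 probe A_23_P88691 lies on the plus strand at chr15:78885456-78885515 and the CHRNA3 probe A_33_P3388147 on the minus strand at chr15:78885453-78885512. They cover the same place on opposite strands, and the capitals mark the 57 bases that are reverse complements of each other.
CHRNA5 A_23_P88691: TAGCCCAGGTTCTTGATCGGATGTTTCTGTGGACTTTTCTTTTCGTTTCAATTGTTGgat
CHRNA3 A_33_P3388147: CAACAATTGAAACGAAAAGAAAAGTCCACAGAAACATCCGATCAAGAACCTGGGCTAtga

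In RefSeq's GRCh38.p14 gene table CHRNA5, CHRNA3 and CHRNB4 follow each other on chromosome 15, and the spans of CHRNA5 and CHRNA3 overlap. The probe positions are of hg19, so whether the probes lie in that overlap was not tested. By the probe sequences, a transcript matching the CHRNA5 probe and a transcript matching A_33_P3388147 would be antisense over the 57 shared bases. An oligonucleotide probe reads 1 strand only as far as the labelling keeps the strands apart, which was not tested. The other CHRNA3 probe, A_33_P3388148, lies at chr15:78893596-78893655 on the minus strand, away from that pair of probes. It is shown as the only CHRNA3 sequence that faces no other member's probe.
CHRNA3 A_33_P3388148: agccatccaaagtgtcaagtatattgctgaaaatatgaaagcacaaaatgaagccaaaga

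The CHRNA1 probes are shown because only 1 of them gave a signal. A_33_P3365305 lies at chr2:175618993-175619052 and A_23_P90888 at chr2:175614837-175614896, both on the minus strand. The capitals in A_33_P3365305 mark a pair of cysteine codons with 13 codons between them, in the only reading frame of the probe without a stop codon. That spacing is the one of the Cys-loop, and of the 12 probes 1 held it. A_23_P90888 has no such pair.
CHRNA1 A_33_P3365305: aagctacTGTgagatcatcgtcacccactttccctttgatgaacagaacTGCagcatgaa
CHRNA1 A_23_P90888: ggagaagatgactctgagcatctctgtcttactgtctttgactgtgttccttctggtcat

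The CHRNA7 probe A_32_P35969, at chr15:32462222-32462281 on the plus strand, has a limit of another kind, since CHRFAM7A is a partial duplicate of CHRNA7. Whether its bases also stand in the duplicate was not tested here, so its signal may come from either gene.

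Levels are given as normalized log2 signal, that is, log2 of the processed signal minus the 75th percentile of the array, so that 0 is that percentile and -1 is a signal at 0.5 times it. Probes differ in how well they bind, so a level was not compared between probes. No probe of any of the 10 genes passed the test of either compound against control in limma, at an adjusted p under 0.05 with a log2 fold change beyond 1, and over all 29134 probes tested the share called was 0% for paraoxon and 0% for mipafox. Of the subunits, 10 probes of 9 genes were tested, and at an unadjusted p under 0.05 the count among them was 0 with paraoxon, where 13.3% of all probes tested passed, and 0 with mipafox, where 6.96% did. For the 9 probes well above background on all 9 arrays, the 95% intervals of the log2 fold changes reached from -0.74 to 0.80 with paraoxon and from -0.52 to 0.70 with mipafox, and none of them held a doubling or a halving.

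**Figure D1:**
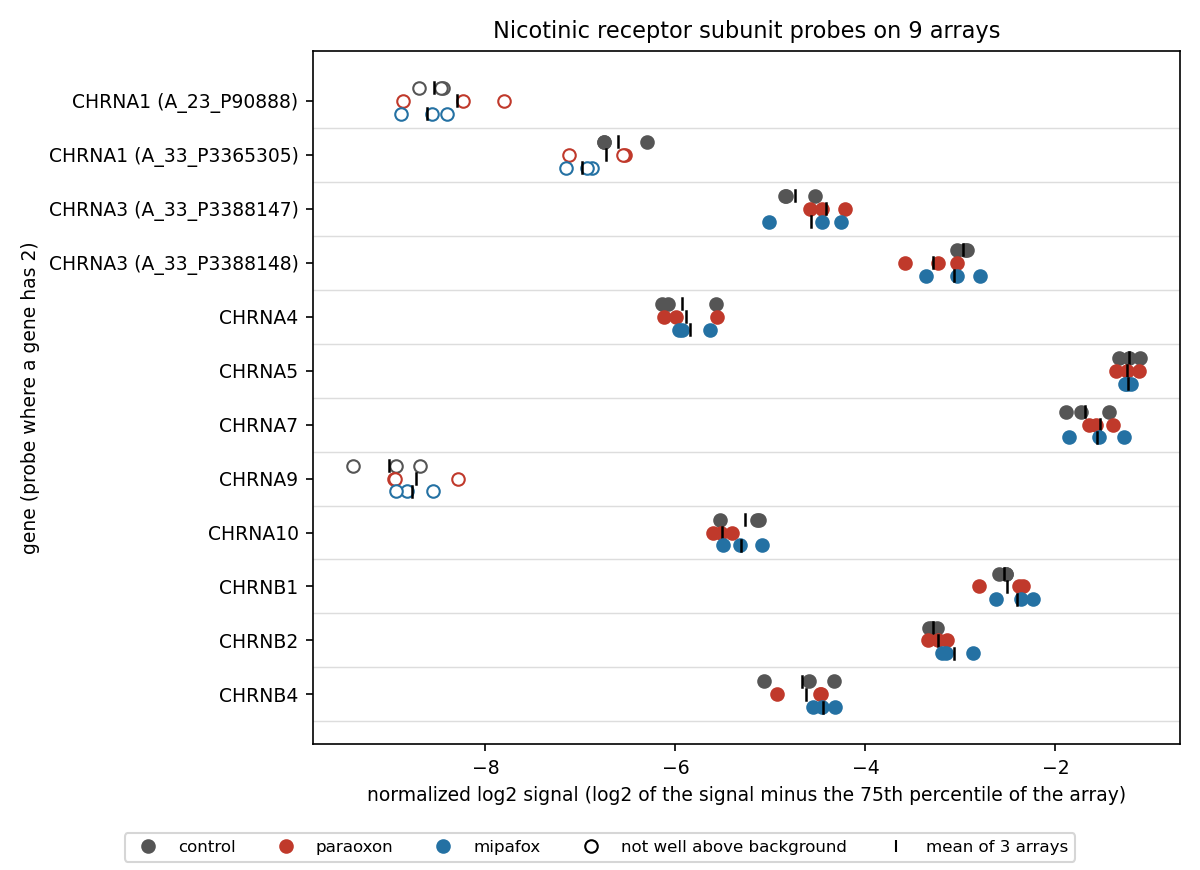
Normalized log2 signal (horizontal axis) of the 12 subunit probes (vertical axis) on each of 9 arrays, coloured by treatment, with open circles where the probe was not well above background and a black bar at the mean of 3 arrays. CHRNA9 and 1 CHRNA1 probe are open throughout, and for most probes the 3 treatments overlap; positions of different probes cannot be compared.

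The slide on which an array lay bears on each of these comparisons. Control A, B and C lay on slide 1 together with mipafox A, and slide 2 carried mipafox B and C with all paraoxon arrays. Paraoxon and control shared no slide, so that their difference within a slide could not be had and a fit with slide as a block rests on the mipafox arrays alone. With that block the intervals were wider, and among the same 9 probes 4 held a doubling or a halving with paraoxon and 1 with mipafox. On single arrays between 65.7% and 73.6% of all probes were well above background, and the 75th percentile of the signal was lowest on mipafox A (802) and paraoxon C (818) and between 1000 and 1590 on the other 7.

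CHRNA1 encodes the subunit that binds acetylcholine in muscle. Its probe A_33_P3365305 read -6.30, -6.75 and -6.75 on control A, B and C. It read -6.53, -7.12 and -6.56 with paraoxon A, B and C, and -7.15, -6.88 and -6.94 with mipafox A, B and C. All 3 mipafox arrays lay below all 3 control arrays, while paraoxon and control overlapped. Mipafox and control arrays did not overlap at 11.8% of all probes tested. The probe was well above background on the 3 control arrays and on paraoxon A, and on no mipafox array, so it entered the test only through the controls. The control mean was -6.60 ± 0.26 (SD, n = 3) and the mipafox mean -6.99 ± 0.15 (SD, n = 3). The control mean was thus 1.31-fold higher, a point estimate resting on mipafox signals that were not well above background. The limma log2 fold change with mipafox was -0.39 ± 0.20 (SE), with an adjusted p of 0.797. Its 95% interval of -0.85 to 0.07 did not exclude equal levels. The fit with slide as a block gave -0.55, which is the difference of mipafox A from the controls on slide 1. The paraoxon value was -0.13 ± 0.20 (SE), with an adjusted p of 0.853, and -0.38 with the slide block. With the normexp background correction the sign with mipafox turned, to 0.04.

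CHRNB1 is the other muscle subunit that was measured, and it was well above background on every array. It read -2.52, -2.52 and -2.59 on the control arrays, -2.34, -2.80 and -2.38 with paraoxon and -2.36, -2.24 and -2.63 with mipafox. The arrays of both treatments lay on either side of the controls, which were within 0.07 of each other. Limma gave 0.04 ± 0.17 (SE) on the log2 scale with paraoxon, with an adjusted p of 0.959, and 0.14 ± 0.17 (SE) with mipafox, with an adjusted p of 0.944. These were 0.10 and 0.18 with the slide block. The remaining muscle subunits differed in detection. CHRNE, of the adult synapse, was well above background on all 9 arrays, CHRND on 7 and CHRNG, of the foetal synapse, on 1. CHRNE had log2 fold changes of -0.12 and -0.27 with paraoxon and mipafox, and CHRND of -0.37 and 0.09, with adjusted p of 0.637 or more. With the slide block the sign turned to 0.32 and 0.02 for CHRNE and to 0.33 with paraoxon for CHRND, whose mipafox value became 0.55.

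CHRNA3 carries the acetylcholine site of the ganglionic receptor, and its 2 probes ran against each other. A_33_P3388147, which faces the CHRNA5 probe, read -4.53, -4.85 and -4.84 on the control arrays, -4.46, -4.58 and -4.21 with paraoxon and -4.25, -4.45 and -5.01 with mipafox. A_33_P3388148 read -2.93, -2.95 and -3.04 on the control arrays, -3.24, -3.04 and -3.59 with paraoxon and -3.36, -3.03 and -2.79 with mipafox. Paraoxon C was the highest array of the first probe and the lowest of the second, and mipafox C was the lowest of the first and the highest of the second. Over the 9 arrays Pearson's r between them was -0.84 and Spearman's rho -0.75, given as a description of arrays that share treatments, slides and scaling. The lowest values of A_33_P3388148 and the highest of A_33_P3388147 were on paraoxon C and mipafox A, the arrays with the lowest 75th percentiles, and the part of signal strength in this was not tested.

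The tests of CHRNA3 therefore depend on the probe in direction. With paraoxon the log2 fold change of A_33_P3388147 was 0.32 ± 0.21 (SE), with an adjusted p of 0.582, and that of A_33_P3388148 was -0.31 ± 0.19 (SE), with an adjusted p of 0.535. With slide as a block they were 0.80, with an adjusted p of 0.613, and -0.76, with an adjusted p of 0.613. These were the only members at an unadjusted p under 0.05 in that fit, at 0.0474 and 0.0339. For that fit the share of all probes under 0.05 was not counted. With mipafox the log2 fold changes were 0.17 ± 0.21 (SE) and -0.09 ± 0.19 (SE), with adjusted p of 0.949 and 0.971. The first of these was 0.0060 without mipafox A, 0.11 without mipafox B and 0.39 without mipafox C, and between 0.11 and 0.27 without one of the controls. The mipafox arrays themselves differed by slide, B and C minus A being -0.48 for A_33_P3388147 and 0.45 for A_33_P3388148. On slide 1, mipafox A minus the control mean was 0.49 and -0.39. On slide 2, the paraoxon mean minus that of mipafox B and C was 0.31 and -0.37, the doses of the compounds being different.

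**Figure D2:**
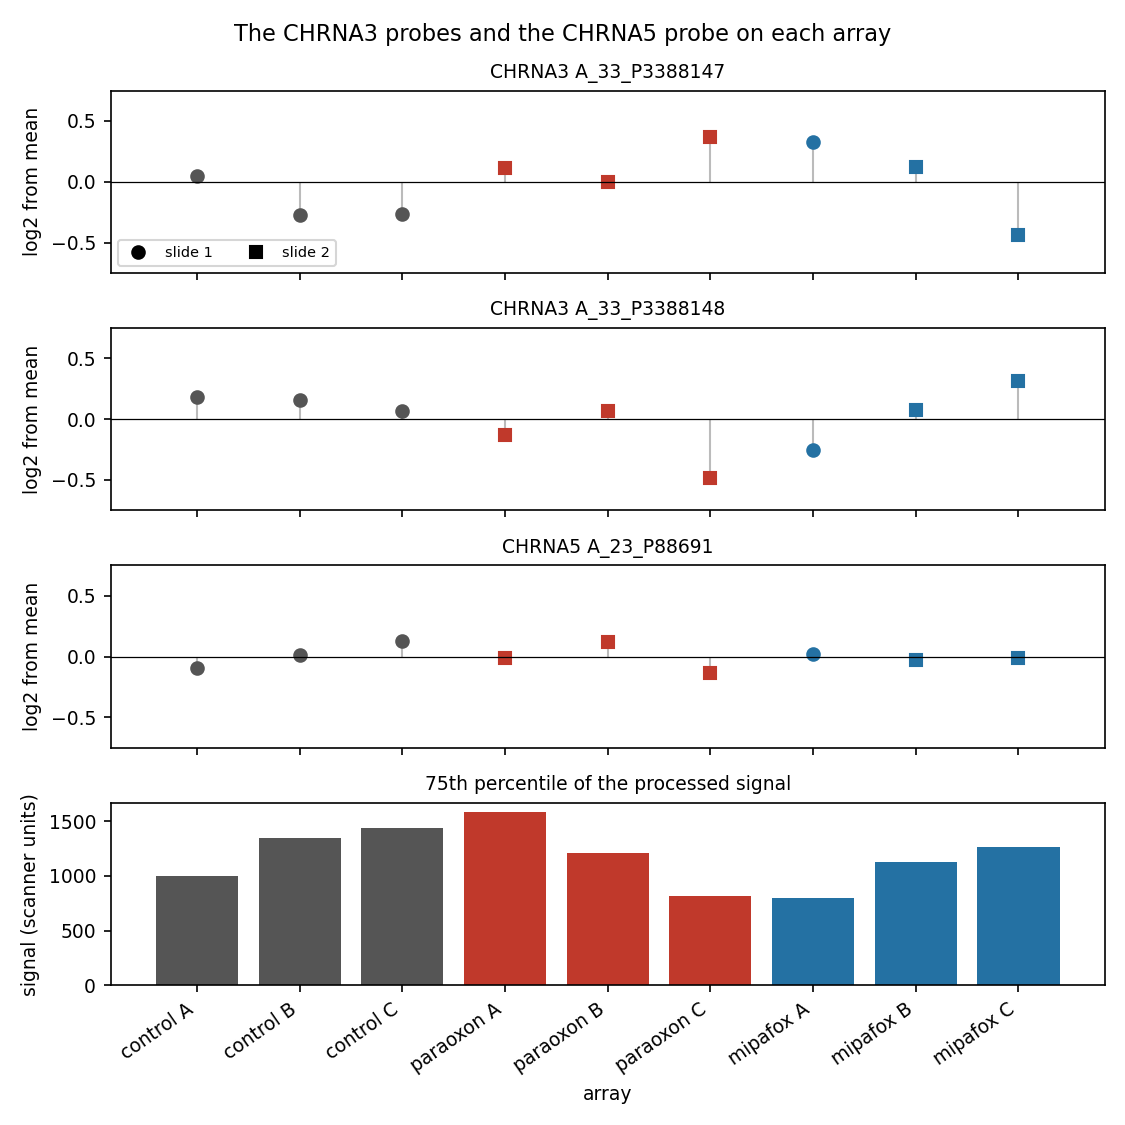
Deviation of the normalized log2 signal from the mean of 9 arrays (vertical axis) for the CHRNA3 probes and the CHRNA5 probe, by array (horizontal axis), coloured by treatment, with circles for slide 1 and squares for slide 2. The bottom panel gives the 75th percentile of the processed signal; the CHRNA3 probes lie on opposite sides of 0 on every array but control A and mipafox B, paraoxon B being close to 0 for the first of them, and the CHRNA5 probe stays close to 0.

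CHRNA5, an accessory subunit that joins CHRNA3 and CHRNB4 but does not form a channel with either alone, gave the steadiest signal of the 12 probes. It read -1.33, -1.22 and -1.10 on the control arrays, -1.25, -1.11 and -1.36 with paraoxon and -1.21, -1.26 and -1.25 with mipafox. All 9 arrays lay within 0.26 of each other, and the treatments overlapped. The log2 fold change was -0.02 ± 0.13 (SE) with each compound, with 95% intervals of -0.32 to 0.27 for paraoxon and -0.31 to 0.27 for mipafox and adjusted p of 0.970 and 0.992. With slide as a block the sign turned with both, to 0.02 and 0.01. The CHRNA3 probe on the opposite strand of the same place ranged over 0.80.

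CHRNB4, the partner of CHRNA3 in ganglia, read -4.33, -4.60 and -5.07 on the control arrays, -4.47, -4.93 and -4.48 with paraoxon and -4.45, -4.32 and -4.55 with mipafox. The controls alone spanned nearly the range of all 9 arrays, and control C was the lowest. The log2 fold change was 0.04 ± 0.21 (SE) with paraoxon, with an adjusted p of 0.972, and 0.22 ± 0.21 (SE) with mipafox, with an adjusted p of 0.919. These were 0.02 and 0.21 with the slide block.

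CHRNB2, the partner of CHRNA4 in brain receptors, also had mipafox and control arrays that did not overlap. It read -3.25, -3.33 and -3.30 on the control arrays, -3.34, -3.23 and -3.14 with paraoxon and -3.15, -2.87 and -3.19 with mipafox. All 3 mipafox arrays lay above all 3 controls, mipafox B farthest, and the paraoxon arrays lay on both sides. With mipafox limma gave a log2 fold change of 0.22 ± 0.14 (SE), with a 95% interval of -0.09 to 0.53 and an adjusted p of 0.828. Slide as a block gave 0.14. Limma with array weights gave a log2 fold change of 0.39, with an adjusted p of 0.0217. It was the only adjusted p under 0.05 of a member in any fit. With those weights 800 of all 29134 probes tested were called with mipafox, against 0 without them. Without weights the paraoxon value of CHRNB2 was 0.05 ± 0.14 (SE), with an adjusted p of 0.923, and -0.06 in the slide fit. Of the 10 subunit probes tested, those of CHRNB2 and CHRNA1 were the 2 whose mipafox and control arrays did not overlap. The share over all probes tested was 11.8%. Of the 9 subunit probes well above background on all 9 arrays, CHRNB2 was the 1. With paraoxon the count was 0 of the 10 tested, where the share over all probes tested was 23.4%.

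CHRNA4 read -5.57, -6.14 and -6.08 on the control arrays, -5.99, -6.12 and -5.57 with paraoxon and -5.93, -5.63 and -5.96 with mipafox. In each treatment 1 array stood higher than its 2 companions, namely control A, paraoxon C and mipafox B. The log2 fold change was 0.04 ± 0.21 (SE) with paraoxon, with an adjusted p of 0.970, and 0.09 ± 0.21 (SE) with mipafox, with an adjusted p of 0.975. Its sign with paraoxon turned with quantile normalization, to -0.03, with the authors' processed values, to -0.01, and with slide as a block, to -0.10. With mipafox the slide block gave -0.0025.

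CHRNA7, the subunit of the calcium-permeable channels that bind bungarotoxin, read -1.89, -1.43 and -1.73 on the control arrays. It read -1.57, -1.64 and -1.39 with paraoxon and -1.28, -1.55 and -1.86 with mipafox. The 3 treatments overlapped. The log2 fold change was 0.15 ± 0.19 (SE) with paraoxon, with an adjusted p of 0.813, and 0.12 ± 0.19 (SE) with mipafox, with an adjusted p of 0.964. With slide as a block these were 0.57, with an adjusted p of 0.622, and 0.40, with an adjusted p of 0.850. CHRFAM7A, the duplicate, had 2 probes with paraoxon log2 fold changes of 0.28 ± 0.12 (SE) and -0.16 ± 0.13 (SE), with adjusted p of 0.385 and 0.673, and of 0.05 and -0.01 with mipafox. With the slide block these were 0.13 and -0.02 with paraoxon and, with the signs turned, -0.04 and 0.08 with mipafox. RIC3, a chaperone needed for CHRNA7 to reach the cell surface, was well above background on all 9 arrays. It read from -2.89 to -2.47 on the control arrays, from -2.44 to -2.16 with paraoxon and from -2.53 to -2.39 with mipafox. Its log2 fold changes were 0.28 ± 0.16 (SE) and 0.16 ± 0.16 (SE), with adjusted p of 0.494 and 0.923. With the slide block they were 0.37 and 0.22.

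CHRNA10 read -5.14, -5.12 and -5.53 on the control arrays, -5.52, -5.40 and -5.61 with paraoxon and -5.50, -5.32 and -5.09 with mipafox. Control C lay with the paraoxon arrays, apart from control A and B. The log2 fold change was -0.24 ± 0.17 (SE) with paraoxon, with an adjusted p of 0.597, and -0.04 ± 0.17 (SE) with mipafox, with an adjusted p of 0.988. With slide as a block the values were -0.54, with an adjusted p of 0.622, and -0.23, with an adjusted p of 0.873. With the normexp background correction the signs turned, to 0.06 and 0.21. CHRNA9, its partner in hair cells, gave processed signals between 2.03 and 3.28 scanner units on the 9 arrays, and none of them was well above background. The CHRNA1 probe that was not well above background anywhere gave 2.37 to 5.46 units.

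**Figure D3:**
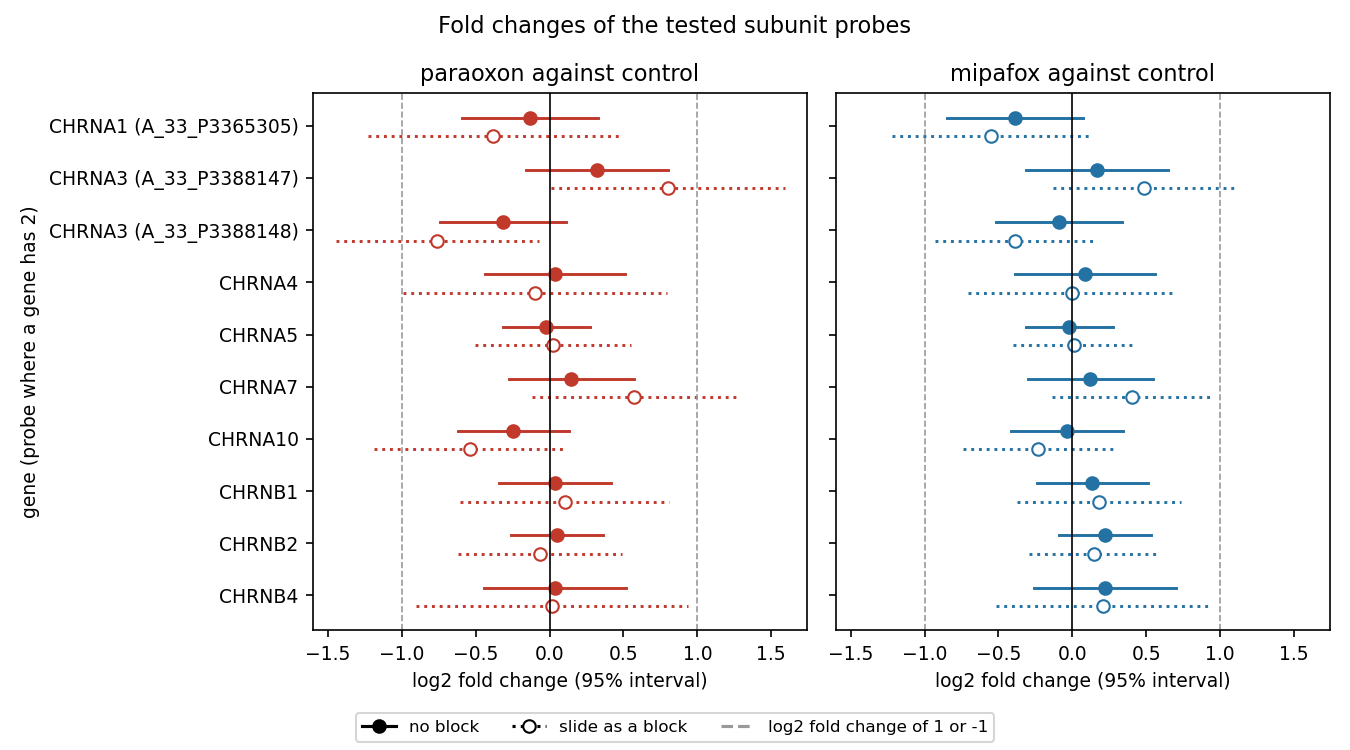
Log2 fold changes (horizontal axis) of the 10 tested subunit probes (vertical axis) with paraoxon (left) and mipafox (right) against control, with 95% intervals from limma; filled points are the fit without a block and open points the fit with slide as a block. All intervals without a block lie between the dashed lines at 1 and -1, though CHRNA1 was not well above background on any mipafox array, and the CHRNA3 probes lie on opposite sides of 0.

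Over the 9 probes well above background on all 9 arrays, the subunits did not move as a family from array to array. Of the 36 pairs of probes, 17 had a Pearson's r above 0 and 19 below, with a median of -0.04. The highest r, 0.83, was between CHRNA10 and the CHRNA3 probe A_33_P3388148. The lowest was between CHRNA5 and CHRNB4, at -0.84. Between CHRNA4 and CHRNB2, partners in the brain receptor, r was 0.59, and between the CHRNA3 probes and CHRNB4 it was 0.45 for A_33_P3388147 and -0.16 for A_33_P3388148. The probes whose pattern was most like a subunit's over the same 9 arrays were those of GRK5 for CHRNA3 A_33_P3388147 (r = 0.99), SPRY4 for A_33_P3388148 (r = 0.97), HCFC1R1 for CHRNA4 (r = 0.98) and RAD1 for CHRNA5 (r = 0.97). For CHRNA7 it was the non-coding NCRNA00247 (r = 0.97), for CHRNA10 HKR1 (r = 0.91) and for CHRNB2 SCRT2 (r = 0.93). CHRNB1 and CHRNB4 were most like probes with no gene symbol, at r = 0.98 and 0.96. Each is the highest of the correlations with all tested probes, over few arrays, and is a description only.

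The genes that make, break down and answer to acetylcholine, and those that assemble or cluster its receptors, were read from the same fit. In 5 lists there were 32 genes, with 33 probes tested, and the count called was 0 with either compound. At an unadjusted p under 0.05 there were 3 probes with paraoxon, 1 higher and 2 lower, and 1 probe with mipafox, which was higher. The shares over all probes tested were 13.3% and 6.96%, so the lists' counts were below them. The median log2 fold change over the 33 was 0.01 with paraoxon and 0.02 with mipafox, beside 0.01 and 0.00099 over all probes tested. For the 10 subunit probes it was 0.04 and 0.10.

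The largest of these values was that of PRIMA1, the membrane anchor of acetylcholinesterase in brain. Its probe A_23_P502808 read -2.79, -3.10 and -3.33 on the control arrays, -2.42, -2.56 and -1.91 with paraoxon and -2.65, -2.28 and -2.70 with mipafox. All 6 treated arrays lay above the 3 controls. Groups did not overlap at 23.4% of all probes tested with paraoxon and at 11.8% with mipafox. Other list probes, among them those of RIC3 and LYPD1 A_33_P3284129, were also apart from the controls with paraoxon. The log2 fold change was 0.77 ± 0.22 (SE) with paraoxon, with an adjusted p of 0.167, and 0.53 ± 0.22 (SE) with mipafox, with an adjusted p of 0.691. With slide as a block these were 0.61 and 0.42. The other PRIMA1 probe had 0.13 and 0.23, with adjusted p of 0.871 and 0.920, and its groups overlapped. With the slide block its signs turned, to -0.22 and -0.0046.

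ACHE encodes acetylcholinesterase itself, which per the methods both compounds inhibit at these doses. It read -2.55, -2.89 and -2.89 on the control arrays, -2.53, -2.68 and -2.67 with paraoxon and -2.69, -2.41 and -2.53 with mipafox. Control A lay among the treated arrays. The log2 fold change was 0.15 ± 0.15 (SE) with paraoxon, with an adjusted p of 0.747, and 0.23 ± 0.15 (SE) with mipafox, with an adjusted p of 0.836. With the slide block the paraoxon value turned to -0.07 and the mipafox value was 0.09. CHAT, which makes acetylcholine, spread widely, from -4.29 to -2.77 on the control arrays, from -5.26 to -3.39 with paraoxon and from -5.42 to -3.55 with mipafox. Its log2 fold changes were -0.67 ± 0.63 (SE) and -0.49 ± 0.63 (SE), with 95% intervals of -2.09 to 0.76 and -1.92 to 0.93, so that both held a halving. With the slide block the signs turned, to 0.16 and 0.06. SLC5A7, the choline transporter, was not well above background on any array.

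CHRM1, a muscarinic receptor, was well above background on the 3 control arrays and on mipafox B and C, and on no paraoxon array, so it entered the test only through the controls. It read -6.16, -6.93 and -6.07 on the control arrays, -7.12, -6.97 and -7.01 with paraoxon and -6.29, -6.29 and -6.52 with mipafox. The paraoxon arrays lay just below control B, the lowest control. Paraoxon and control arrays did not overlap at 23.4% of all probes tested. The control mean was -6.39 and the paraoxon mean -7.03, the latter from signals that were not well above background. The control mean was thus 1.57-fold higher, as a point estimate. Limma gave a paraoxon log2 fold change of -0.65, with a 95% interval of -1.14 to -0.15 and an adjusted p of 0.243. With slide as a block the paraoxon value was -0.54. With mipafox the log2 fold change was 0.02 ± 0.22 (SE), with an adjusted p of 0.997. LYPD1, a membrane-anchored protein of the Ly6 family that binds nicotinic receptors, had a paraoxon log2 fold change of -0.39 ± 0.16 (SE) at its probe A_33_P3284129, with an adjusted p of 0.330, and -0.21 with slide as a block. Its other tested probe, A_32_P101031, gave -0.42 ± 0.31 (SE) and an adjusted p of 0.640, but 0.49 with slide as a block.

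**Figure D4:**
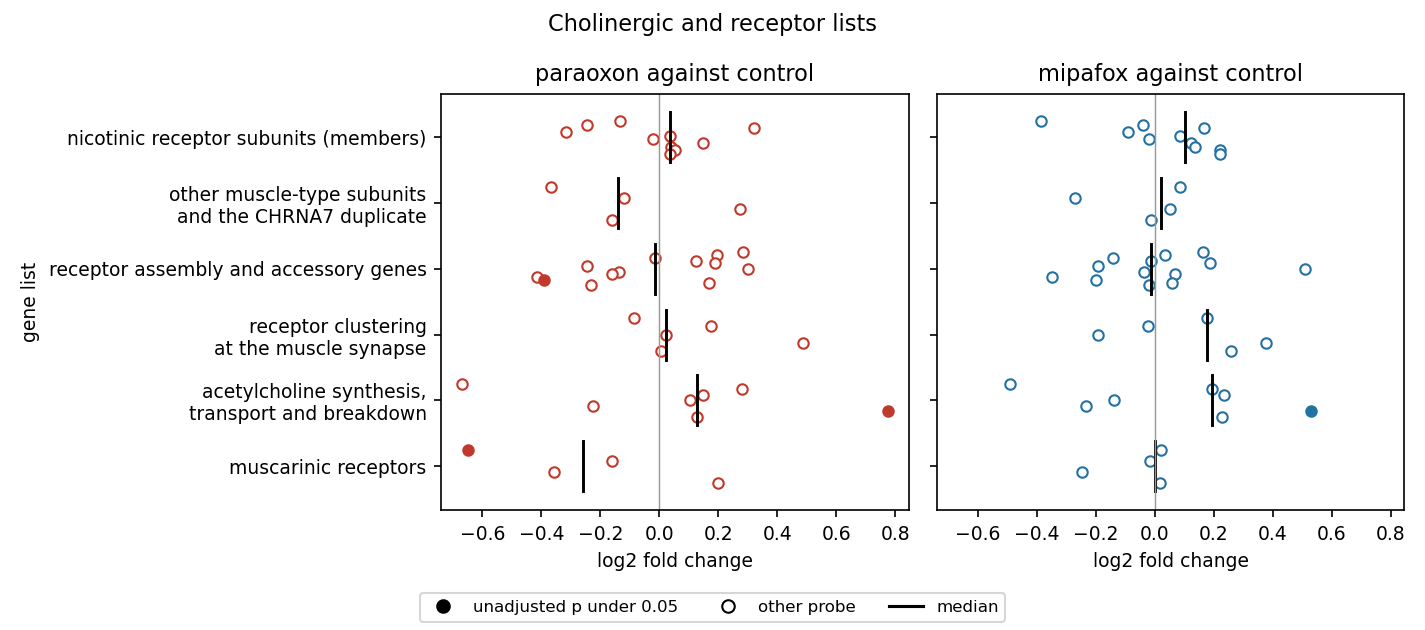
Log2 fold changes (horizontal axis) of the tested probes of the subunits and of 5 cholinergic and receptor lists (vertical axis), with paraoxon (left) and mipafox (right) against control; each circle is a probe, filled at an unadjusted p under 0.05, and the black bar is the median. No subunit probe is filled, and the filled probes are those of PRIMA1, LYPD1 and CHRM1.

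The marker lists place these levels in their cells. The embryonal carcinoma markers were well above background on all 9 arrays in 6 of 6 genes, among them POU5F1, SOX2 and LIN28A, and so was CYP26A1, which retinoic acid induces. Of 6 neuron markers 4 were, TUBB3 among them, while STMN2 was so on 2 of 9 arrays. Markers of undifferentiated cells were thus measured beside those of early neural ones, and from which cells a subunit's signal came was not tested. Of 7 skeletal muscle markers 6 were well above background on all 9 arrays, MYF5 being so on none. The summed muscle marker level ran from -0.84 to -0.24 on the control arrays, from -0.71 to 0.03 with paraoxon and from -0.73 to -0.11 with mipafox. Most of that sum was the DES probe, and without it the range was -2.21 to -2.02, -2.09 to -1.86 and -2.23 to -1.81. Its part in the CHRNA1 and CHRNB1 values was not tested.

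Of the 35 tested marker probes, 5 had an unadjusted p under 0.05 with paraoxon and 3 with mipafox, where 13.3% and 6.96% of all probes tested did, and 0 were called. HOXB1, a retinoic acid target, had -0.84 and -0.66 with paraoxon and mipafox, 1 of 2 POU5F1 probes -0.49 with paraoxon and 1 of 3 tested PAX6 probes 0.47 with paraoxon. PHOX2A and MYOD1 were the others, with both compounds. With slide as a block HOXB1 had -0.58 and -0.49, and with paraoxon that POU5F1 probe had -0.02 and that PAX6 probe 0.46. The other POU5F1 probe had -0.13 with paraoxon, and 0.74 with the slide block. MYOD1, a muscle regulator, read -6.58 to -6.28 on the control arrays, -5.74 to -5.18 with paraoxon and -5.89 to -5.19 with mipafox, with adjusted p of 0.132 and 0.462. PHOX2A, a regulator of autonomic neurons, read -7.17 to -6.64 on the control arrays, -5.74 to -5.15 with paraoxon and -6.24 to -5.12 with mipafox, with adjusted p of 0.10 and 0.344. For PHOX2A the log2 fold changes of 1.41 and 1.38 were 0.30 and 0.65 with slide as a block, and mipafox B and C lay 1.11 above mipafox A. MYOD1 had 0.90 and 0.81, and 0.61 and 0.62 with the slide block. In both genes all treated arrays lay above all control arrays. Groups did not overlap at 23.4% of all probes tested with paraoxon and at 11.8% with mipafox. The mipafox A signal of PHOX2A was not well above background. Neither gene passed the adjusted test.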

How the data were processed

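Per the labels, total RNA was labelled with Cy3 and hybridized to one-colour Agilent arrays. The authors extracted spot intensity values with Agilent Feature Extraction 10.5.1.1 and deposited them with a table of processed log2 values, made with Agi4x44PreProcess and limma per their methods. Its background correction and normalization are not given in the sources used here, and it served as an alternative. From these files, log2 of the processed signal minus each array's 75th percentile was computed without control spots or spots with an outlier flag, and repeat spots of a probe were averaged. A probe counted as well above background on an array where at least 0.5 of its spots were. A probe entered the test if every array of 1 treatment or more passed that flag, which left 29134 probes for limma 3.58.1 in R 4.3.3, with 1 mean per treatment over 9 arrays, and p-values were adjusted over all of them (Benjamini-Hochberg). The fit was tested on simulated data. Precision is limited by the number of arrays. The members and lists were chosen with earlier results of these data known. Named were all 10 subunit genes, list genes with a probe at an unadjusted p under 0.05 in either comparison, ACHE, CHAT, RIC3 and CHRFAM7A, and the most alike probe of each subunit. CHRND, CHRNE, CHRNG, SLC5A7 and the marker genes were named after their values were seen. The lists covered other muscle subunits and the CHRNA7 duplicate, receptor assembly, clustering at the muscle synapse, acetylcholine synthesis to breakdown, and muscarinic receptors. Alternatives were quantile normalization, normexp background correction, the authors' table, other filters on dim probes, outlier spots, slide or replicate letter as a block, 2 treatments alone, array weights, the variance model, the thresholds and each array left out.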

Additional observations from a re-analysis of the deposited data

How the results depend on the processing

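The count of subunit probes called was 0 under every alternative run, with either compound, also with each array left out (0 to 0) and at an unadjusted p with the fold limit. At an unadjusted p under 0.05 it was 2 with paraoxon under array weights (both CHRNA3 probes) and under slide as a block, and with mipafox it was 4 under array weights and 1 under quantile normalization (CHRNA1). One of these had an adjusted p under 0.05, CHRNB2 with mipafox under array weights (0.0217, where the alternatives ran up to 1.00). The share of all probes at an unadjusted p under 0.05 was not counted in these alternatives, so the counts are no result about the subunits. Over all probes tested the count called was not 0 in 3 alternatives with all arrays, being 278 with paraoxon for the 2 treatments alone, 671 and 800 with paraoxon and mipafox under array weights, and 1 and 6 under slide as a block, and it reached 275 and 78 without mipafox A. The number of subunit genes well above background was 8, and 9 if every array of 1 treatment sufficed or if a positive and significant signal was asked for. With the replicate block (letters A, B and C) no call changed, the CHRNA3 probes keeping log2 fold changes of 0.32 and -0.31 with paraoxon. Of 9 same-letter pairs of arrays 5 had deviations correlated above 0.1 (r from -0.67 to 0.61). The deviations are from means of 3 arrays, so this cannot settle whether the letters mark paired cultures. The sign turned as follows with paraoxon. Array weights gave 0.10 for CHRNA1 and -0.027 for CHRNA7, the authors' values 0.070 for CHRNA5, -0.094 for CHRNB1, -0.022 for CHRNB2 and -0.014 for CHRNA4, normexp 0.056 for CHRNA10, quantile normalization -0.0099 for CHRNB4 and -0.034 for CHRNA4, and slide as a block -0.096 for CHRNA4, -0.064 for CHRNB2 and 0.025 for CHRNA5. With mipafox, array weights gave -0.0014 for CHRNA7, the authors' values 0.051 for CHRNA5 and 0.074 for CHRNA10, normexp 0.21 for CHRNA10, 0.044 for CHRNA1 and 0.012 for CHRNA3 A_33_P3388148, and slide as a block -0.0025 for CHRNA4 and 0.011 for CHRNA5. With single arrays left out, the paraoxon value ran from -0.24 to 0.059 for CHRNA1, -0.13 to 0.22 for CHRNA4, -0.087 to 0.039 for CHRNA5, -0.046 to 0.19 for CHRNB1 and -0.17 to 0.20 for CHRNB4. The mipafox value ran from -0.22 to 0.059 for CHRNA3 A_33_P3388148, -0.020 to 0.27 for CHRNA4, -0.076 to 0.037 for CHRNA5, -0.020 to 0.27 for CHRNA7 and -0.17 to 0.060 for CHRNA10. The cause of these turns was not tested. Signal over background limits CHRNA9 and CHRNA1. CHRNA4 and CHRNA10 were well above background on all 9 arrays, but at low processed signals. These were 13.5 to 24.9 and 16.8 to 38.6 scanner units, beside 5.64 to 17.2 for CHRNA1 A_33_P3365305.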
